A study of Mus musculus with 10 samples.

Results

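The genes described here are the Wnt ligands, their receptors, inhibitors and targets, followed across 6 RNA-seq libraries of mouse (Mus musculus) tracheal epithelial organoids. They were chosen by symbol, as the Wnt, frizzled, SFRP and DKK families plus 20 named co-receptors, secretion factors, beta-catenin pathway genes and targets. The count table holds 48 of them among 22457 genes, and 35 of the 48 had enough reads to be tested. The organoids were grown from basal cells, the stem cells of the airway lining, of control mice (Ctrl, 3 libraries) and of M3-CKO mice (3 libraries), a knockout of Mettl3 going by the title of the series. The Mettl3 protein writes N6-methyladenosine, a mark on messenger RNA. Both groups were embedded in Matrigel, fed airway epithelial medium that held insulin, transferrin, cholera toxin, EGF, pituitary extract, retinoic acid, serum and the TGF-beta and BMP receptor inhibitors A83-01 and DMH-1, with a ROCK inhibitor at the start, and harvested on day 14. The extraction protocol describes dispersed tracheal epithelial sheets and names no sort for basal cells. The protocol lists no Wnt protein, R-spondin or GSK3 inhibitor among the additives, and it also describes a second, serum-free differentiation medium. The sources used here do not give the Cre driver, the deleted part of Mettl3, the age of the mice, or whether libraries of a group came from separate animals or cultures. P-values therefore measure only how far these libraries vary, and that variation may be technical.

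Wnt proteins are lipid-modified ligands. The acyltransferase Porcn attaches the lipid and the carrier Wls brings the ligand to the cell surface, where it binds a frizzled receptor together with Lrp5 or Lrp6. In the canonical branch this halts a destruction complex built on Apc and Axin, so that beta-catenin (Ctnnb1) accumulates and switches on targets through TCF and LEF factors. Axin2, Sp5, Znrf3, Rnf43, Nkd1 and Notum are well-known targets, and most of them damp the signal in turn. In the trachea, Wnt ligands and beta-catenin are known to act in airway patterning and in basal cell growth and differentiation.

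The upstream sequences of Sp5 and Axin2 are shown because these targets had the largest positive fold changes among the 35 tested members. These genes had enough reads to be tested only through their M3-CKO libraries. Both sequences are the 250 bases before the RefSeq start site on GRCm38.p6, an older build than the one used for the counts. Capitals mark TCF and LEF core matches. Sp5 lies on the plus strand at chr2:70474673-70474922, and Axin2 on the plus strand at chr11:108920099-108920348.
Sp5: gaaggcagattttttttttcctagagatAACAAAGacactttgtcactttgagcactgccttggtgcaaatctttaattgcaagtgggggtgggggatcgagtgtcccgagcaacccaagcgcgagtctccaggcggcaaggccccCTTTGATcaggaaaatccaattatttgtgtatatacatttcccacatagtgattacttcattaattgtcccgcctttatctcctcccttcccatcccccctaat
Axin2: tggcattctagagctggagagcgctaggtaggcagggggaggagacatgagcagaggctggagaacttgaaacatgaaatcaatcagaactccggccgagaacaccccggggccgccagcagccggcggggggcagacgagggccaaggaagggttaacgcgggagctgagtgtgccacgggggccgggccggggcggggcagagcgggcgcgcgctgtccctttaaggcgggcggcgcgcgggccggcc
The motifs CTTTGAT and CTTTGAA were searched on both strands in windows from 250 bases before to 50 after the start site, and CTTTGTT and CTTTGTA were added after that first search. These 4 spellings share the core CTTTG. The Sp5 window holds CTTTGAT at 104 bases before the start, and CTTTGTT on the opposite strand at 222 bases before it. The Axin2 window holds neither set. Of the 48 members 31 were matched to RefSeq, with 41 promoters. Of these promoters 4 hold a match to the first pair (in Sp5, Wnt5b, Wnt11 and Dkk1), and 7 hold any of the 4 spellings. Over all 32851 promoters in the table, 8.65% hold the first pair, 16.9% any of the 4 spellings and 1.94% at least 2 matches. A match is a run of letters and was not tested as a binding site.

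Each library held between 8906375 and 10485922 counted reads, and 1 CPM (the read count scaled to the library’s total times its TMM factor) rests on 8.76 to 10.4 reads. M3-CKO replicate 3 stood apart: its Pearson r across genes on log2(CPM + 1) values was 0.920 to 0.930 with the other M3-CKO libraries, which reached 0.990 with each other, and 0.934 to 0.938 with Ctrl. These r values describe the libraries, since genes are no replicates. Mettl3 itself stood at 15.0 to 18.9 CPM in Ctrl and 9.87 to 11.1 in M3-CKO (log2 fold change -0.70, SE 0.21, edgeR adjusted p = 0.12). The epithelial markers Epcam, Cdh1, Krt8 and Krt18 summed to 1865 to 2965 CPM in the 6 libraries. The 6 basal cell markers (Krt5, Krt14, Krt15, Trp63, Ngfr and Pdpn) summed to 1942 to 2386 CPM in Ctrl and to 679 to 1094 in M3-CKO. By edgeR Krt5, Krt14 and Krt15 fell, while Trp63, Ngfr and Pdpn were not called and overlapped between groups.

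In M3-CKO organoids the frizzled receptor gene Fzd3 and the secreted inhibitor gene Sfrp1 fell, and the Wnt target Sp5 rose from no reads at all. Sp5 had enough reads to be tested through its M3-CKO libraries alone. Fzd3 was at 46.3% of its Ctrl level and Sfrp1 at 33.3%. By edgeR's quasi-likelihood test (adjusted p under 0.05 over all tested genes), 1 of 35 tested members rose, 2 fell and 32 were not called. Of all 13528 tested genes 2.91% were called, 1.74% higher and 1.16% lower in M3-CKO. The members' log2 fold changes had a median of 0.13, beside 0.02 over all tested genes, with 20 positive and 15 negative. The groups did not overlap for 13 of the 35 members (7 higher and 6 lower in M3-CKO), against 27.1% of all tested genes (13.7% higher and 13.5% lower). An unadjusted p under 0.05 was reached by 9 of the 35, against 20.5%. DESeq2 called 6 of the 35 members (4 higher, 2 lower), where it called 10.4% of all genes (6.05% higher, 4.31% lower). The 3 edgeR calls hold without M3-CKO replicate 3 and are each lost when any 1 of the other 5 libraries is left out.

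**Figure D1:**
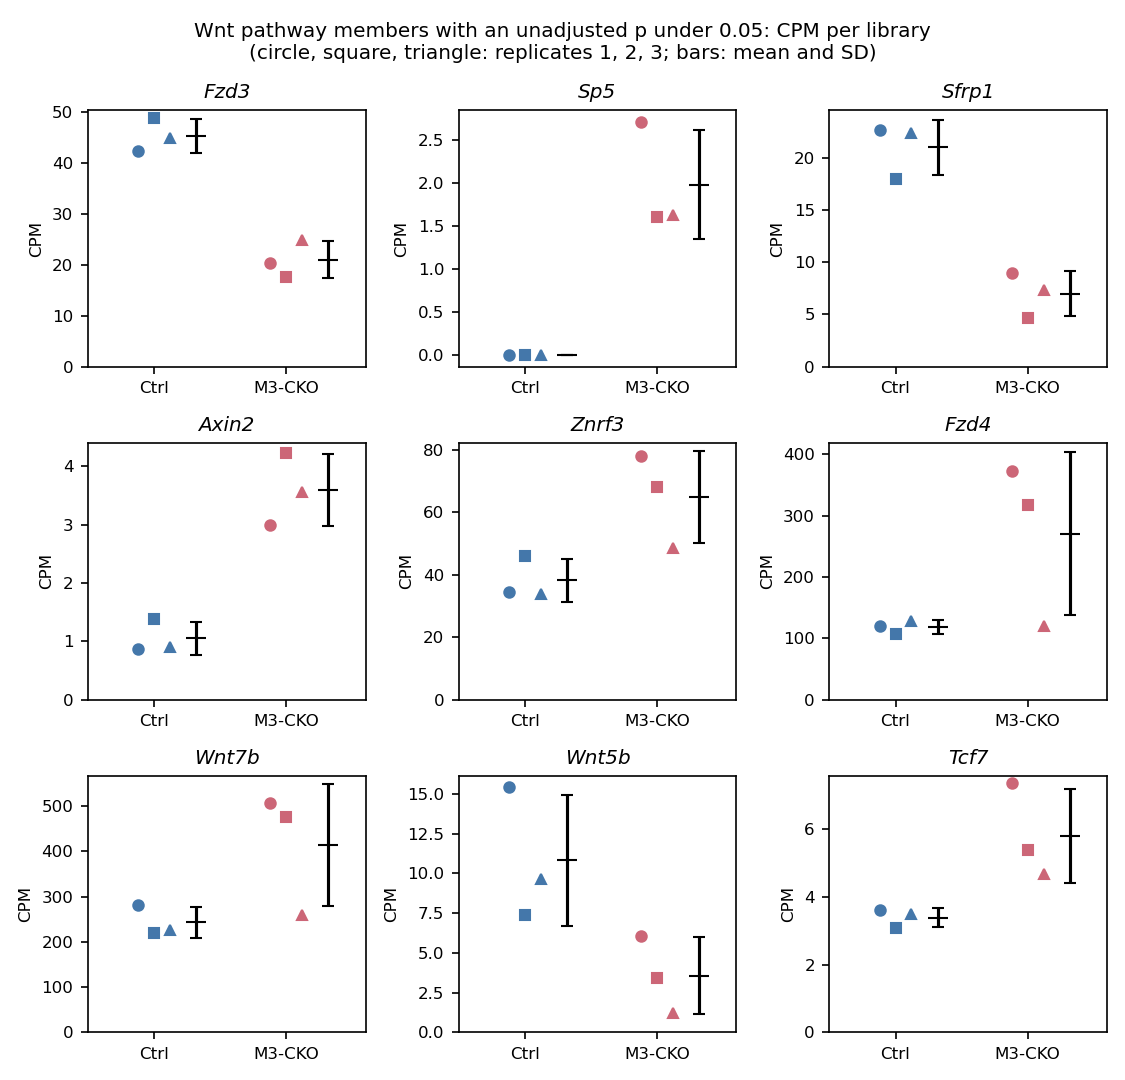
CPM (vertical axis, linear from 0) of the 9 members with an unadjusted p under 0.05, by library. Points are libraries (circle, square and triangle for replicates 1, 2 and 3) and bars give the mean and SD of each group. Fzd3, Sp5 and Sfrp1 passed the adjusted test. M3-CKO replicate 3 lies among the Ctrl libraries for Fzd4 and Wnt7b.

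Among the ligands, edgeR and DESeq2 each called 0 of the 9 tested, beside 2.91% and 10.4% of all genes. An unadjusted edgeR p under 0.05 was reached by 2 of the 9, beside 20.5% of all genes. Wnt7b, an epithelial ligand known from lung development, had CPM values of 282.3, 220.5 and 227.2 in the Ctrl libraries, and of 507.1, 476.5 and 259.9 in the M3-CKO libraries, each in replicate order. The first pair of M3-CKO libraries lay above every Ctrl library, and the third fell inside the Ctrl range. Its log2 fold change was 0.77 (SE 0.27, edgeR adjusted p = 0.16). It came to 1.01 (SE 0.14, edgeR adjusted p = 0.0022) with M3-CKO replicate 3 left out. That fit called 25.0% of all tested genes. With other single libraries left out, the edgeR adjusted p of Wnt7b lay between 0.25 and 0.43.

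Wnt4, a ligand with many roles in epithelia, had CPM of 294.9, 293.7 and 243.8 in Ctrl and of 216.3, 183.3 and 248.5 in M3-CKO. M3-CKO replicates 1 and 2 were below every Ctrl library, and replicate 3 was not. The log2 fold change was -0.36 (SE 0.17, edgeR adjusted p = 0.29), and -0.48 (adjusted p = 0.039) without replicate 3. With other single libraries left out, the edgeR adjusted p of Wnt4 lay between 0.39 and 0.59. Wnt5b, mostly known for non-canonical signalling, was lower in every M3-CKO library, at 6.08, 3.42 and 1.22 CPM, than in any Ctrl library, at 15.4, 7.40 and 9.66. Its log2 fold change of -1.59 (SE 0.56) had an edgeR adjusted p of 0.17, and DESeq2 gave 0.058.

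Wnt5a, the best-known non-canonical ligand, split the M3-CKO group. Its CPM was 33.1, 33.1 and 46.9 in Ctrl, and 74.5, 76.5 and 18.8 in M3-CKO. Wnt9a had CPM of 29.8, 21.8 and 36.6 in Ctrl, and of 43.6, 46.3 and 12.4 in M3-CKO. Wnt10a, a ligand of skin appendages and teeth, stood at 11.1, 11.5 and 10.2 CPM in Ctrl, and at 33.9, 22.5 and 6.10 in M3-CKO. For all 3 ligands, M3-CKO replicates 1 and 2 exceeded every Ctrl library while replicate 3 lay below every one. These 3 were described after their values were seen. Their edgeR adjusted p were 0.54, 0.84 and 0.38, with log2 fold changes of 0.59, 0.21 and 0.93. Without replicate 3 the log2 fold changes were 1.00 for Wnt5a (adjusted p = 0.0060), 0.61 for Wnt9a (0.069) and 1.36 for Wnt10a (0.0038). As the 3 ligands were picked for this split, leaving out replicate 3 gives no separate support. That fit called 25.0% of all tested genes.

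The remaining tested ligands were thinly covered. Wnt11, a non-canonical ligand, held 78 reads over the 3 Ctrl libraries and 35 over M3-CKO (log2 fold change -1.20, SE 0.60, edgeR adjusted p = 0.31). Wnt2b had 80 and 78 reads, and its fold change took either sign as libraries were left out. Wnt7a had 45 and 30 reads with none in Ctrl replicate 2, and its log2 fold change was -0.67 by edgeR and 0.64 by limma-voom.

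Neither ligand-processing gene was called by edgeR or DESeq2. Wls stood at 514.2, 506.8 and 492.8 CPM in Ctrl, and at 435.4, 419.9 and 670.5 in M3-CKO. Replicates 1 and 2 of M3-CKO were thus below the narrow Ctrl range and replicate 3 above it, so that the group means (504.6 ± 10.8 and 508.6 ± 140.4 CPM, SD, n = 3) nearly coincide. Porcn was at 8.19, 13.5 and 12.4 CPM in Ctrl, and at 13.7, 14.5 and 16.1 in M3-CKO. All 3 M3-CKO libraries exceeded the Ctrl ones, by little (log2 fold change 0.38, SE 0.26, edgeR adjusted p = 0.46).

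Of the 8 tested frizzled receptors, the membrane proteins that bind Wnt, edgeR called 1 lower and 7 not at all, and DESeq2 called 1 lower and 1 higher. Over all genes, edgeR called 1.16% lower, and DESeq2 4.31% lower and 6.05% higher. Fzd3, which is best known for planar cell polarity and axon guidance, stood at 42.4, 48.8 and 44.9 CPM in Ctrl, and at 20.4, 17.7 and 24.9 in M3-CKO. The highest M3-CKO library was well under the lowest Ctrl one. The means were 45.4 ± 3.26 and 21.0 ± 3.66 CPM (SD, n = 3), with a log2 fold change of -1.11 (SE 0.19, edgeR adjusted p = 0.033). DESeq2 gave an adjusted p of 3.5e-05. Leaving out any 1 of Ctrl replicates 1 to 3 or M3-CKO replicates 1 and 2 moved the edgeR adjusted p to between 0.11 and 0.16, with log2 fold changes from -1.16 to -0.99. With M3-CKO replicate 3 left out it was -1.26 (edgeR adjusted p = 0.0015).

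Fzd4, the receptor for norrin as well as Wnt ligands, had CPM of 119.1, 106.6 and 128.6 in Ctrl, and of 373.0, 317.9 and 120.2 in M3-CKO. M3-CKO replicates 1 and 2 were far above Ctrl, and replicate 3 was within the Ctrl range. The log2 fold change was 1.19 (SE 0.38, edgeR adjusted p = 0.13, DESeq2 adjusted p = 0.025), and 1.54 without replicate 3 (edgeR adjusted p = 3.9e-04). The fit without replicate 3 called 25.0% of all tested genes. With other single libraries left out, the edgeR adjusted p of Fzd4 lay between 0.28 and 0.37.

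Fzd1, Fzd5 and Fzd7, described after their values were seen, split like Wnt5a. Fzd1 was at 116.4, 88.2 and 121.5 CPM in Ctrl, and at 183.4, 168.5 and 35.6 in M3-CKO. Fzd5 was at 47.9, 32.9 and 45.2 CPM in Ctrl, and at 80.5, 84.4 and 24.9 in M3-CKO. Fzd7, a receptor known from stem cells of other epithelia, was at 97.6, 96.5 and 125.2 CPM in Ctrl, and at 163.1, 151.3 and 63.6 in M3-CKO. None was called with all libraries (edgeR adjusted p from 0.48 to 0.84). Without replicate 3 all 3 were higher, with log2 fold changes of 0.69 for Fzd1 (adjusted p = 0.014), 0.97 for Fzd5 (0.0061) and 0.56 for Fzd7 (0.024). These receptors were picked for the split itself, so the fit without replicate 3 is no separate support. It called 25.0% of all tested genes.

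Fzd6, which like Fzd3 is known for planar polarity, moved little. Its CPM was 145.5, 151.6 and 121.0 in Ctrl, and 156.3, 155.8 and 176.5 in M3-CKO (log2 fold change 0.22, SE 0.15, edgeR adjusted p = 0.45). Fzd8 and Fzd2 overlapped between groups, with log2 fold changes of -0.11 and 0.17. The CPM of all 10 frizzled genes summed to 584 to 658 in Ctrl, and to 1034, 963.4 and 503.2 in M3-CKO replicates 1 to 3, so replicate 3 lay below Ctrl and the others above it.

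**Figure D2:**
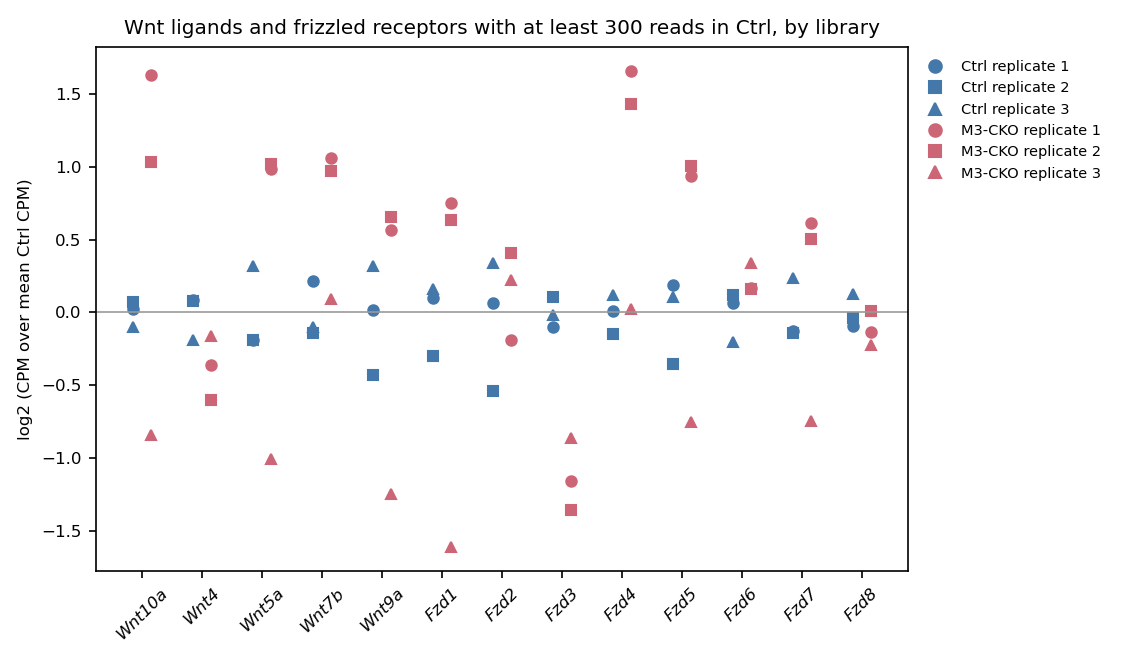
Log2 ratio of each library's CPM to the mean Ctrl CPM (vertical axis) for the 13 tested ligands and frizzled receptors with at least 300 reads in Ctrl. Blue points are Ctrl and red points M3-CKO, with circle, square and triangle for replicates 1, 2 and 3. Fzd3 is below 0 in every M3-CKO library, while M3-CKO replicate 3 (red triangle) is below every Ctrl library for Wnt5a, Wnt9a, Wnt10a, Fzd1, Fzd5 and Fzd7.

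Counted over all tested members, 6 of 35 had M3-CKO replicates 1 and 2 above and replicate 3 below every Ctrl library, and 3 of 35 (Wls, Lgr4 and Tcf7l2) had the reverse. The same held for 7.75% and 8.51% of all tested genes. Without replicate 3, edgeR called 14 of 37 tested members, 10 higher and 4 lower, where it called 25.0% of all genes (13.7% higher and 11.3% lower). That fit rests on M3-CKO replicates 1 and 2 alone, whose spread is narrow. Replicate 3 also differed in the 5 club cell markers, which summed to 3003 to 3493 CPM in Ctrl and to 1862, 1359 and 4872 in M3-CKO replicates 1 to 3, with none at 0. These markers did not move as one. In replicate 3, Cyp2f2 and Bpifa1 lay inside the Ctrl range, and Scgb3a1 and Scgb3a2 above it. Scgb1a1 lay above the Ctrl range in every M3-CKO library, and edgeR called it higher in M3-CKO. The part of these markers in these differences was not tested. In bulk RNA, fewer cells of a type and less RNA per cell cannot be told apart.

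The co-receptors and the LGR receptors for R-spondin were called by neither edgeR nor DESeq2. Lrp6 stood at 239.2, 308.0 and 335.6 CPM in Ctrl, and at 336.5, 305.6 and 205.3 in M3-CKO, and the groups overlapped widely. Lrp5 was at 152.6, 157.2 and 165.7 CPM in Ctrl, and at 141.7, 138.1 and 86.1 in M3-CKO. Every M3-CKO library was below Ctrl, with replicate 3 the lowest (log2 fold change -0.38, SE 0.21, edgeR adjusted p = 0.36). Lgr4, the broadly expressed LGR receptor, was at 135.7, 180.5 and 132.9 CPM in Ctrl, and at 114.0, 113.3 and 193.3 in M3-CKO. Lgr6, known to mark stem cells of skin and other epithelia, ranged over 4.48, 30.1 and 48.7 CPM in Ctrl and over 23.9, 42.1 and 25.4 in M3-CKO. Ctrl replicate 1 was the low one, and without it the log2 fold change went from 0.13 to -0.37 (edgeR adjusted p = 0.94 with all libraries). Lgr5, the intestinal stem cell marker, had 0 reads in Ctrl and 2 in M3-CKO.

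Of the secreted inhibitors, Sfrp1 fell and Dkk3 was not called. Sfrp1 binds Wnt ligands outside the cell and keeps them from frizzled receptors. It stood at 22.6, 18.0 and 22.4 CPM in Ctrl, and at 8.98, 4.68 and 7.32 in M3-CKO, with no overlap. The means were 21.0 ± 2.60 and 6.99 ± 2.17 CPM (SD, n = 3), with a log2 fold change of -1.58 (SE 0.29, edgeR adjusted p = 0.037, DESeq2 adjusted p = 6.1e-05). With M3-CKO replicate 3 left out it was -1.61 (edgeR adjusted p = 0.0066). Without any 1 of the other libraries (Ctrl replicates 1 to 3, M3-CKO replicates 1 and 2) it was -1.80 to -1.35, with adjusted p from 0.10 to 0.17.

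Mesenchymal cells also express Sfrp1, and 4 of the 8 listed mesenchymal markers have a row. They summed to 3.38 to 12.7 CPM in Ctrl and to 1.35 to 3.86 in M3-CKO, most of it Pdgfra. Pdgfra, the 1 tested marker of the list, was at 3.38, 9.20 and 11.8 CPM in Ctrl and at 1.26, 1.71 and 2.95 in M3-CKO, lower without overlap like Sfrp1. Its log2 fold change was -2.04 (SE 0.55), with adjusted p of 0.092 by edgeR and 0.0088 by DESeq2. The other 3 markers were near 0 over the 6 libraries, with Col1a1 at 0 reads in Ctrl and 4 in M3-CKO, Dcn at 5 and 1, and Vim at 3 and 11. The sum of the basal cell markers, given above, was lower in every M3-CKO library too, with 3 of the 6 markers not overlapping between groups. The part of these cell types in the Sfrp1 difference was not tested. Dkk3, a divergent member of the DKK family, had 13, 38 and 46 reads in Ctrl, and 44, 54 and 59 in M3-CKO, with overlap (log2 fold change 0.63, SE 0.48, edgeR adjusted p = 0.52).

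The membrane ubiquitin ligases Znrf3 and Rnf43 both remove frizzled receptors from the cell surface. Znrf3 stood at 34.6, 46.0 and 33.9 CPM in Ctrl, and at 77.9, 68.0 and 48.7 in M3-CKO. All M3-CKO libraries were above Ctrl, with replicate 3 closest to it. Its log2 fold change was 0.76 (SE 0.22, edgeR adjusted p = 0.11, DESeq2 adjusted p = 0.042), and 0.93 without replicate 3 (edgeR adjusted p = 0.0065). With other single libraries left out, the edgeR adjusted p of Znrf3 reached 0.35. Rnf43 showed no such shift, at 46.1, 49.3 and 55.0 CPM in Ctrl and 53.0, 49.9 and 48.8 in M3-CKO (log2 fold change 0.01, SE 0.15, edgeR adjusted p = 0.97). Whether Znrf3 and Rnf43 differ in their response was not tested.

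Of beta-catenin and its destruction complex, edgeR called 0 of 4 genes. Axin2 alone reached an unadjusted p under 0.05, and it was the 1 gene that DESeq2 called. The shares over all genes were 2.91% called by edgeR, 10.4% called by DESeq2 and 20.5% at that unadjusted p. Axin2 is the scaffold protein whose gene is the standard readout of canonical signalling. It had 8, 13 and 8 reads in Ctrl and 31, 37 and 35 in M3-CKO, or 0.874, 1.37 and 0.899 against 2.99, 4.22 and 3.56 CPM. The lowest M3-CKO library was above the highest Ctrl library. Axin2 passed the low-count filter through its M3-CKO reads. The log2 fold change was 1.76 (SE 0.41), with adjusted p of 0.067 by edgeR and 0.016 by DESeq2. It ranged from 1.64 to 2.00 as single libraries were left out, with 1.76 in the absence of M3-CKO replicate 3. The edgeR adjusted p of these fits ran from 0.027, without M3-CKO replicate 3, to 0.26.

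Axin1, the related scaffold (described after its values were seen), was at 85.4, 80.5 and 79.7 CPM in Ctrl and at 103.4, 96.3 and 87.8 in M3-CKO (log2 fold change 0.23, SE 0.14, edgeR adjusted p = 0.40). Ctnnb1, which encodes beta-catenin, was at 1400, 1134 and 1277 CPM in Ctrl and at 1094, 1079 and 923.8 in M3-CKO. The groups did not overlap, and the difference was small (log2 fold change -0.30, SE 0.17, edgeR adjusted p = 0.37). RNA counts say nothing of beta-catenin protein, whose stability is what the pathway controls. Apc was at 276.7, 315.0 and 324.6 CPM in Ctrl and at 304.8, 359.9 and 182.6 in M3-CKO, with replicate 3 alone below Ctrl.

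The nuclear TCF and LEF factors gave 0 calls of 3 tested with edgeR and with DESeq2 (2.91% and 10.4% of all genes). An unadjusted edgeR p under 0.05 (20.5% of all genes) was reached by 1. That was Tcf7, also a Wnt target in many tissues, at 3.60, 3.07 and 3.48 CPM in Ctrl and 7.34, 5.36 and 4.68 in M3-CKO. Its groups did not overlap (log2 fold change 0.77, SE 0.33, edgeR adjusted p = 0.23). Tcf7l1, mainly a repressor, was at 21.7, 22.2 and 26.3 CPM in Ctrl and at 18.5, 17.0 and 19.8 in M3-CKO, without overlap (-0.34, SE 0.19, edgeR adjusted p = 0.36). Tcf7l2 was at 24.3, 23.4 and 23.5 CPM in Ctrl and at 18.5, 17.7 and 24.4 in M3-CKO, where replicate 3 lay just above Ctrl and the others below. Lef1 had 3 reads in Ctrl and 0 in M3-CKO.

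Sp5, a transcription factor gene that Wnt signals induce directly, had 0 reads in each Ctrl library and 28, 14 and 16 reads in M3-CKO replicates 1 to 3. Every M3-CKO library was thus above every Ctrl library, with a mean of 1.98 ± 0.630 CPM (SD, n = 3). The pooled M3-CKO CPM was 18.4-fold an upper limit of 3 counts in the Ctrl group, with no error put on the M3-CKO value. Sp5 was called higher in M3-CKO (edgeR adjusted p = 0.035, DESeq2 adjusted p = 2.0e-04). It passed the low-count filter through its M3-CKO reads alone. Its edgeR adjusted p was 0.0080 without M3-CKO replicate 3, and 0.10 to 0.15 without any 1 of the other libraries (Ctrl replicates 1 to 3, M3-CKO replicates 1 and 2). The 58 reads behind it are few, and counting error alone is wide at this depth.

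**Figure D3:**
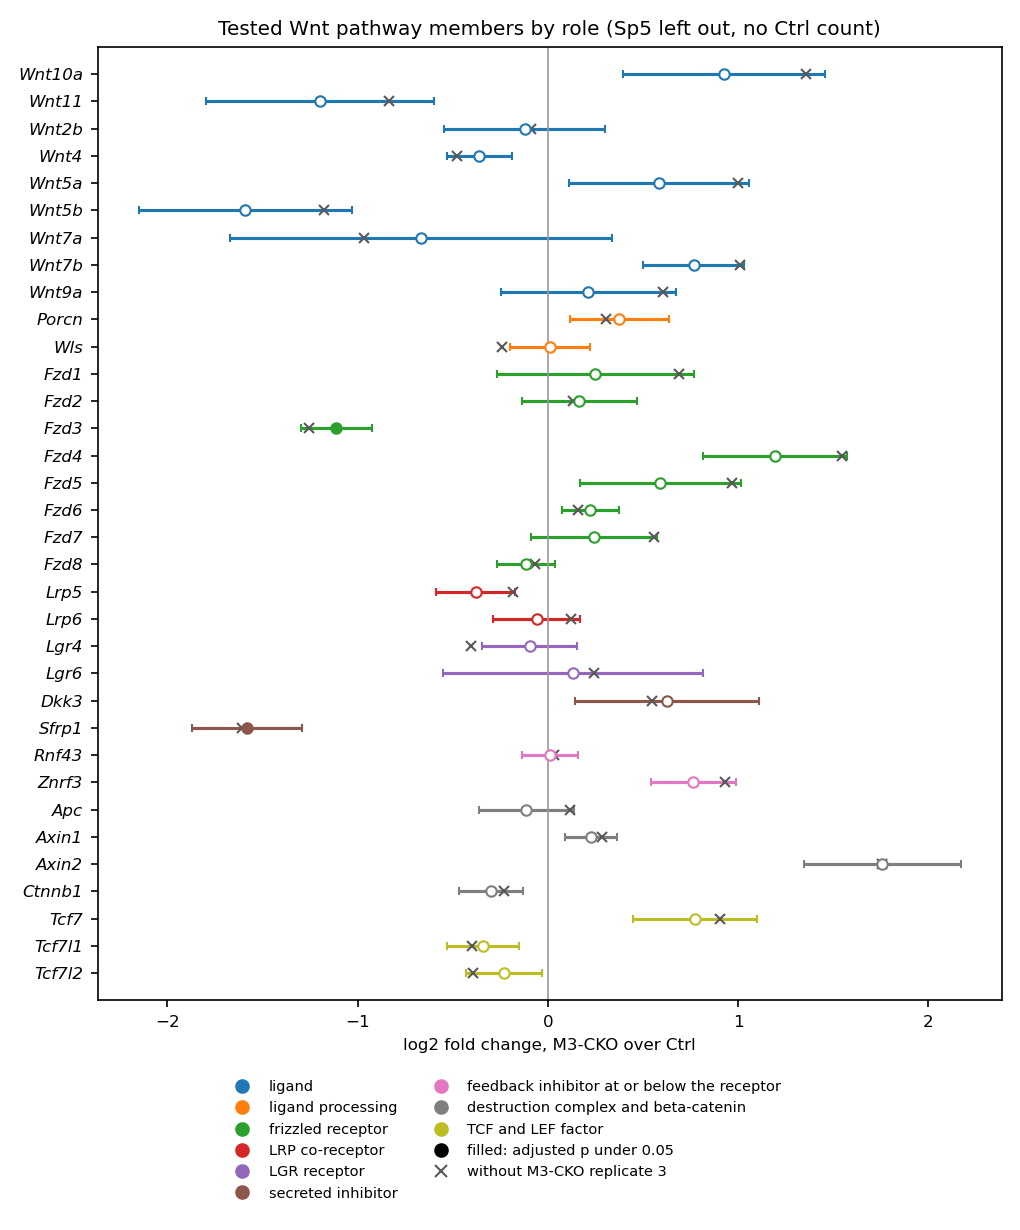
Log2 fold change of M3-CKO over Ctrl (horizontal axis) for the 34 tested members other than Sp5, coloured by role. Circles are the edgeR estimate with all 6 libraries, bars 1 SE, filled circles an adjusted p under 0.05 (Fzd3 and Sfrp1), and crosses the estimate without M3-CKO replicate 3. Axin2, at 1.76, keeps its value without that library, while Fzd4 moves from 1.19 to 1.54.

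The 13 members too low for the test hold few reads each. Fzd10 (described after its values were seen) had 11, 16 and 7 reads in Ctrl and 0 in each M3-CKO library. The pooled Ctrl CPM was 11.9-fold an upper limit of 3 counts in the M3-CKO group, with no error put on the Ctrl value. Fzd10 missed the low-count filter, and without that filter its edgeR adjusted p was 0.030 over 22457 genes, of which 3.30% were called. With single libraries left out, Fzd10 passed the filter in some fits, through its Ctrl reads alone. The edgeR adjusted p of those fits ran from 0.016, without M3-CKO replicate 3, to 0.17. The fit without that replicate called 25.0% of all tested genes. Wnt16 had 6, 16 and 12 reads in Ctrl and 3, 4 and 2 in M3-CKO, and Wnt6 had 21 reads in Ctrl and 2 in M3-CKO (both described after their values were seen, with edgeR adjusted p of 0.28 for each without the filter). Fzd9 had 2 reads in Ctrl and 12 in M3-CKO. The feedback inhibitors Notum (3 reads in Ctrl, 5 in M3-CKO) and Nkd1 (2 and 0), and the inhibitors Dkk1 (2 and 0), Sfrp2 (2 and 0) and Sfrp5 (0 and 1), were at the edge of detection, as were Wnt3a and Wnt10b (2 and 0 each). At this depth a fall or a small rise in these genes could not be detected. None of them reached the 14 to 28 reads that Sp5 had in the M3-CKO libraries.

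**Figure D4:**
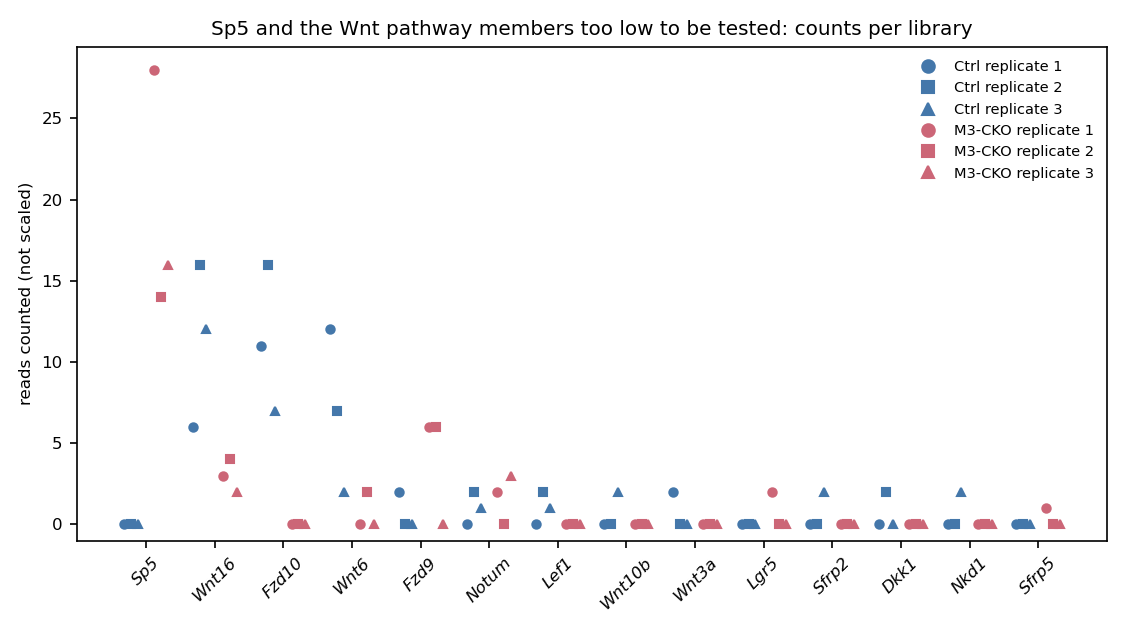
Unscaled read counts per library (vertical axis) of Sp5 and of the 13 members too low to be tested, ordered by total reads. Blue points are Ctrl and red points M3-CKO. Sp5 has reads in M3-CKO libraries (14 to 28) and none in Ctrl, and Fzd10 has reads in Ctrl libraries (7 to 16) and none in M3-CKO.

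The rest of the pathway was read from a list of 93 symbols of further components and reported targets. The list holds Troy and Wisp1, second names of the listed Tnfrsf19 and Ccn4. Of the symbols 80 have a row and 63 were tested. With edgeR 1 rose and 1 fell, where 2.91% of all genes were called. DESeq2 called 12 (6 higher, 6 lower), where it called 10.4% of all genes. Both edgeR calls were among the 19 tested targets. Tnfrsf19, a TNF receptor family gene also called Troy, fell from 102.1, 78.3 and 87.7 CPM in Ctrl to 29.5, 23.6 and 24.7 in M3-CKO (log2 fold change -1.78, SE 0.18, edgeR adjusted p = 0.0096). Without Ctrl replicate 1, 2 or 3, or M3-CKO replicate 2, its adjusted p lay between 0.057 and 0.084. Apcdd1, which encodes a membrane inhibitor of Wnt signalling, rose from 2.51, 2.22 and 2.58 CPM to 22.6, 14.3 and 7.32 (2.59, SE 0.44, edgeR adjusted p = 0.033). M3-CKO replicate 3 had the smallest rise. Without any 1 of Ctrl replicates 1 to 3 or M3-CKO replicates 1 and 2, its adjusted p lay between 0.095 and 0.16.

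The other targets with the lowest p went both ways, and edgeR called none of these 4 while DESeq2 called each (adjusted p from 0.011 to 0.044). Ascl2, a stem cell factor of the gut, had 75 reads in Ctrl and 20 in M3-CKO (-1.97, SE 0.55, edgeR adjusted p = 0.10). Ephb2 was at 563.1 ± 7.37 and 408.3 ± 19.7 CPM (SD, n = 3), a log2 fold change of -0.46 (edgeR adjusted p = 0.12). Cd44, a hyaluronan receptor, was at 491.6 ± 78.8 and 883.9 ± 261.2 CPM, and Bambi, a pseudoreceptor of the TGF-beta family, at 14.4 ± 6.31 and 33.1 ± 12.2 CPM, with edgeR adjusted p of 0.12 and 0.15. Of the 44 tested components edgeR called 0 and DESeq2 5 (10.4% of all genes), and 10 reached an unadjusted p under 0.05 (20.5% of all genes). Those with the lowest p were the planar polarity cadherin Celsr1 (log2 fold change -0.66), the Apc-binding protein Amer1 (-0.94), the Dishevelled-binding Dact2 (1.38) and the corepressor Tle4 (-0.83), with edgeR adjusted p from 0.070 to 0.12 and DESeq2 adjusted p from 0.0070 to 0.045.

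Some counts may hold reads of neighbours. The sources used here do not give the strand setting of the counting. On GRCm38.p6, 23 of the 48 members overlap another RefSeq gene between their start and end coordinates. Whether exons overlap was not tested. Fzd4 overlaps Tmem135, Tcf7 overlaps Skp1, Wnt5b overlaps Fbxl14, and Fzd3 overlaps the predicted genes Gm52141 and Gm9086. Sp5, Sfrp1, Axin2, Znrf3 and Fzd10 overlap no other gene in that table.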

How the data were processed

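RNA-seq was analysed for 6 libraries, 3 per group. The 4 m6A immunoprecipitation and input libraries were not analysed here. The authors deposited raw whole-number counts per gene symbol. The build mm39 and the tools HISAT2, featureCounts and Trim Galore are named per the submitters' processing notes. The sources used here give no versions, annotation or strand setting for them. Columns were matched to samples by name.

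The whole table was fitted in edgeR 4.0.16 (R 4.3.3): filterByExpr kept 13528 of 22457 genes, TMM factors ran from 0.956 to 1.05, and the groups were compared by glmQLFTest, two-sided and without covariates. The call threshold was an adjusted p (Benjamini-Hochberg) of 0.05. The SE is the log2 fold change over the square root of F. For a single gene, an exact permutation of 3 against 3 libraries cannot go below 0.1. DESeq2 1.42.0 and limma 3.58.1 (voom) were alternatives, with other scalings, filters, a replicate block and each library left out.

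The members, lists and tests were chosen with earlier results of these data known. Values per library are given for members called or with an unadjusted p under 0.05, the best-covered pair of each role, and 12 fixed genes, and others are marked. Of other pathway genes, the called ones and up to 4 more per list are named. On data simulated for this comparison (13528 genes, 50 changed genes per fold size), edgeR recovered 20% of genes changed 2-fold, 80% of 4-fold and 94% of 8-fold. Of its 157 calls there, 10 were false. The simulation drew genes independently and set no library apart, unlike M3-CKO replicate 3 here, so recovery in the real data may differ. Promoters are RefSeq sequences. Intervals and floors cover counting error only, and the floors only that of the group without reads.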

Additional observations from a re-analysis of the deposited data

How the results depend on the processing

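Counts of calls depended on the fit. Over all genes, the 393 calls became 1402 with DESeq2, 740 with no low-count filter, 20 with the replicate block, and 0 to 3483 when single libraries were left out (0 without Ctrl replicate 1 or 3, with 2378 and 1963 genes at an unadjusted p under 0.05). For the members, the 3 calls became 6 with DESeq2 (Axin2, Fzd4 and Znrf3 added) and 0 with the replicate block (8 at an unadjusted p under 0.05), and ranged from 0 to 14 when single libraries were left out. For the other pathway genes, the 2 calls became 12 with DESeq2, 1 with limma-voom, 5 with no low-count filter and 1 with the replicate block, and ranged from 0 to 21. The labels state no pairing by replicate number. Deviations of same-numbered libraries correlated at -0.024, 0.021 and -0.11, and no library correlated best with its own number. With 3 libraries per group these values cannot exclude a pairing. The cause of the changes in calls was not tested. The filter of 1 CPM in 3 libraries kept 13654 genes and was not stricter than filterByExpr, so 5 CPM in 3 libraries was added after seeing the data. It left 2 member calls, since Sp5 was too low to be tested. The DESeq2 size factors and library size alone changed no sign and no call of a named gene. Of 38 named genes, 27 kept their sign in every fit. With limma-voom the log2 fold change was 0.64 for Wnt7a, -0.023 for Wls and -0.061 for Fzd1, and with the replicate block it was -0.023 for Wls and -0.0055 for Fzd1. Leaving out single libraries gave -0.35 to 0.12 for Wnt2b, -0.051 to 0.61 for Wnt9a, -0.24 to 0.14 for Wls, -0.090 to 0.69 for Fzd1, -0.048 to 0.37 for Fzd2, -0.20 to 0.12 for Lrp6, -0.40 to 0.058 for Lgr4, -0.37 to 0.81 for Lgr6, -0.040 to 0.079 for Rnf43 and -0.31 to 0.12 for Apc. Few reads limit Sp5 (58), Wnt7a (75), Wnt11 (113), Axin2 (132) and the 13 untested members.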
